A study of Mus musculus with 16 samples.

Results

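The mitochondrial death pathway and its p53 arm were followed through 10 genes in sorted brain cells after experimental stroke. The genes were Bax, Bak1, Bcl2, Bcl2l1, Bcl2l11, Mcl1, Bid, Bbc3, Pmaip1 and Cdkn1a. They were found by gene symbol in the expression table of the series, where all 10 members were present among 13982 genes, and none was lost to the filter on low values (1 FPKM or more in 4 or more libraries), which left 10846 genes for testing. FPKM are fragments per kilobase of transcript, scaled to the reads of the library, so levels of different genes can be set side by side. The 16 libraries formed 4 groups of 4, all from C57BL/6 mice. MCAO+AS-exos and MCAO+Ctrl-exos mice had a middle cerebral artery occlusion (MCAO), a surgical model of ischaemic stroke, and were given 150 µg of exosomes through the tail vein from the day of surgery and then every 3 days. MCAO mice had the occlusion without exosomes, and Sham mice had neither. The exosomes came from plasma of Apoe knockout donors, which develop atherosclerosis, on a western diet (12 weeks) or a normal diet. Which diet the codes AS and Ctrl stand for is not stated in the labels, nor are age, sex or day of sorting. RNA came from CD45- and CD11b-stained cells of the cortex, labelled microglia, and the dissected tissue is called infarct cortex in the labels of every group, Sham included.

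The BCL2 family sets the threshold at which mitochondria release cytochrome c. BAX and BAK1 are the effectors that form pores in the outer mitochondrial membrane, BCL2, BCL-XL (Bcl2l1) and MCL1 are guardians that hold them in check, and the BH3-only proteins BIM (Bcl2l11), BID, PUMA (Bbc3) and NOXA (Pmaip1) relieve that check or activate the effectors. The transcription factor p53 is known to induce Bax, Bbc3, Pmaip1 and Cdkn1a, the last of which encodes the cell cycle inhibitor p21. MCL1 and the related BCL2A1 proteins are short-lived guardians that are prominent in myeloid cells.

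Promoter sequences are shown for 3 members that p53 is known to induce and that moved after MCAO, Cdkn1a and Bax upwards and Bbc3 downwards. The windows run from 250 bases before to 50 bases after an annotated start and are taken from RefSeq on build GRCm38.p6. The sources used here name GRCm39.p6 for the expression values, and the expression table holds no coordinates. Capitals mark exact matches to the p53 consensus decamer (10 bases, the same on both strands), of which p53 binds a pair, and the matches did not overlap one another. Stretches with a mismatch were not searched for, so unmarked bases may hold weaker matches. The first is the upstream of 2 Cdkn1a starts, at chr17:29090729-29091028 on the plus strand. The Bax window lies at chr7:45466849-45467148 on the minus strand, and the Bbc3 window is the most upstream of its 3 starts, at chr7:16309333-16309632 on the plus strand.
Cdkn1a: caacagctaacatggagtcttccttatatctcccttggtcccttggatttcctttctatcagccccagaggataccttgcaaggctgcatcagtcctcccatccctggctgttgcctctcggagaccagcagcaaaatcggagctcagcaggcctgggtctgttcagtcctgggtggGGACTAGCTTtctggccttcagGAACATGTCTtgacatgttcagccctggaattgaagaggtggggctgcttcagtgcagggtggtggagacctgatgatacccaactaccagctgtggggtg
Bax: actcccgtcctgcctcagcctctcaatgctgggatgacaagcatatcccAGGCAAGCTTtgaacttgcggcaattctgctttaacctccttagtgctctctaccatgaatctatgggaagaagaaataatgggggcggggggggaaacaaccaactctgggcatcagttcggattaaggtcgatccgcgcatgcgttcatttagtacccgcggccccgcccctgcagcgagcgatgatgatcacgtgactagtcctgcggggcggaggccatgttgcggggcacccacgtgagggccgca
Bbc3: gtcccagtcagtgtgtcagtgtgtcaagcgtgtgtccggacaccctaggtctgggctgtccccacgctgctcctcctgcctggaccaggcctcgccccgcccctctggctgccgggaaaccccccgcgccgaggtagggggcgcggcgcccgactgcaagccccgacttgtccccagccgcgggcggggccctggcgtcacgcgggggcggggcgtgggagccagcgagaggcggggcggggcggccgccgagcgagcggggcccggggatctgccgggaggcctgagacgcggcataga
The Cdkn1a window held GGACTAGCTT, beginning at position -73 from the start, and GAACATGTCT, beginning at -51. Whether these 2 form a pair was not tested. The Bax window held AGGCAAGCTT at -201, and the Bbc3 window held no match. Member windows on 1 chromosome were left out of the member counts after the search, and no Pmaip1 window was among those kept. The shares of all promoter windows were taken without that omission. The windows kept covered 9 members, 15 in all, and 2 of these windows held at least 1 decamer. Of all 32851 promoter windows 8.36% held at least 1, and 0.359% held 2 or more. These letters describe the windows and are not measured binding sites.

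Before the values, some libraries have to be described. Library totals ranged between 758283 and 983648 summed FPKM, with 8813 to 10003 genes at 1 FPKM or more. No counts were used, so sequencing depth is unknown. MCAO+AS-exos replicate 4 stood apart from its group: across genes its log2 levels had a mean correlation of 0.915 with replicates 1 to 3. Among themselves, replicates 1 to 3 had r of 0.979 to 0.985. Replicate 4 had a mean correlation of 0.922 with the MCAO libraries and 0.928 with the MCAO+Ctrl-exos libraries. Fold changes that rest on MCAO+AS-exos are therefore given with and without replicate 4. Nothing in the labels ties a library to its own mouse, so the p-values measure the spread between libraries, which may be technical. The label microglia was checked against marker genes. The summed level of 10 homeostatic microglia markers was 1133 to 1781 FPKM in MCAO+AS-exos, 1173 to 1259 in MCAO+Ctrl-exos, 981 to 1800.1 in MCAO and 20889.5 to 22855 in Sham libraries, and all 10 were called lower in MCAO than in Sham. The summed level of 10 monocyte markers was 3374 to 6912, 3008 to 5321 and 3610 to 4280.0 FPKM in the same 3 stroke groups, against 31.4 to 159 FPKM in Sham libraries, and all 10 were called higher. The defining microglia marker P2ry12 averaged 47.7 ± 4.01 FPKM in MCAO and 4214 ± 918 FPKM in Sham, and the monocyte receptor Ccr2 averaged 198 ± 63.3 FPKM in MCAO and 3.49 ± 2.63 FPKM in Sham (SD, n = 4 each). Border macrophage markers summed to 1918.5 to 4530 FPKM in MCAO against 2.84 to 60.5 in Sham, and 8 of 9 were called higher. Neutrophil markers summed to 1632 to 9702 FPKM in MCAO against 76.7 to 144 in Sham, and 5 of 7 tested were called higher. Most of the MCAO sums was S100a8, at 1264 to 7116 FPKM, and S100a9, at 275 to 2331 FPKM. Most of the Sham sums was Csf3r, at 64.7 to 134 FPKM in Sham and 43.2 to 111 in MCAO. Oligodendrocyte markers summed to at most 74.7 FPKM in MCAO and 31.4 in Sham, and astrocyte markers to at most 14.4 and 107.4. The Sham astrocyte sum was nearly all Slc1a3, at 56.9 to 107.4 FPKM in Sham and at most 0.71 in MCAO. Gja1 went the other way, at 2.74 to 11.7 FPKM in MCAO and at most 0.02 in Sham. Neuron markers summed to at most 5.79 FPKM in any library. These marker shifts cover every comparison with Sham below, and in bulk libraries fewer cells of a type and less RNA per cell cannot be told apart.

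**Figure D1:**
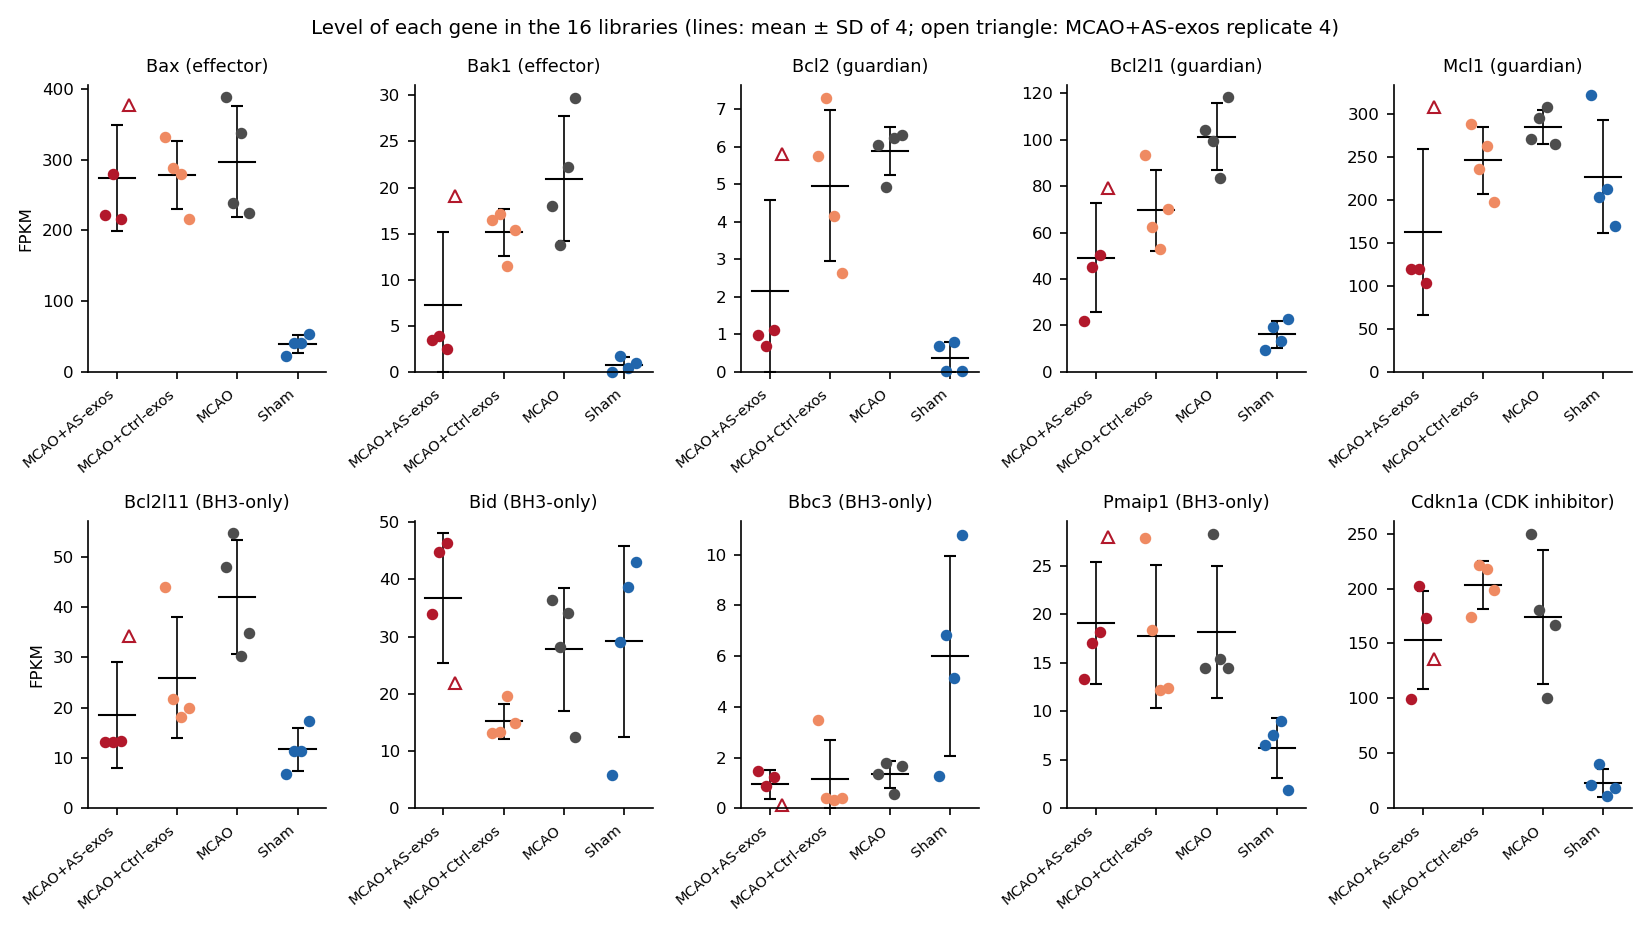
Level of each of the 10 genes in FPKM (vertical axes, each from 0) in the 4 libraries of MCAO+AS-exos, MCAO+Ctrl-exos, MCAO and Sham (horizontal axes), with the mean and SD of each group as black lines and MCAO+AS-exos replicate 4 as an open triangle. Bax lies between 216 and 388 FPKM in the 12 stroke libraries and at or below 53.1 FPKM in Sham. The triangle lies above the other 3 libraries of its group for Bax, Bak1, Bcl2, Bcl2l1, Bcl2l11, Mcl1 and Pmaip1. It lies below them for Bid and Bbc3.

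After MCAO without exosomes, 7 of the 10 genes were higher than in Sham, 1 was lower and 2 did not pass the test (limma on log2(FPKM + 1), Benjamini-Hochberg adjusted p below 0.05). Both effectors, the guardians Bcl2 and Bcl2l1, the BH3-only genes Bcl2l11 and Pmaip1, and Cdkn1a rose, Bbc3 fell, and Mcl1 and Bid did not pass. The background was wide, since 39.2% of all tested genes were called in this comparison, with 24.5% higher and 14.8% lower than in Sham. The median log2 fold change was 2.07 over the 10 genes and 0.25 over all tested genes. The median over all genes was -0.03 after quantile normalization.

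Both effectors rose. Bax had 388, 239, 338 and 225 FPKM in MCAO libraries, against 22.1, 41.4, 40.3 and 53.1 FPKM in Sham libraries. Its groups lay far apart, with a log2 fold change of 2.92 ± 0.27 (SE) and an adjusted p of 5.92e-08. Bak1 had 18.0, 13.8, 22.2 and 29.7 FPKM in MCAO libraries, against a listed 0, 1.76, 0.40 and 1.01 FPKM in Sham libraries. Here too no MCAO library came near a Sham library, and the log2 fold change was 3.66 ± 0.47 (adjusted p = 4.31e-06). Bax made up nearly all effector transcript per length in both groups, 88.3 to 95.6% of the summed Bax and Bak1 FPKM in MCAO and at least 95.9% in Sham libraries.

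Among the guardians, Bcl2l1 and Bcl2 rose and Mcl1 did not pass the test. Bcl2l1 had 104, 99.4, 83.3 and 118 FPKM in MCAO libraries, against 9.49, 19.2, 13.2 and 22.6 FPKM in Sham libraries. The lowest MCAO library was above the highest Sham library, with a log2 fold change of 2.63 ± 0.34 (adjusted p = 4.31e-06). Bcl2, the founding member of the family, was a low transcript, at 6.05, 4.93, 6.24 and 6.32 FPKM in MCAO libraries and 0.69, 0.02, 0.80 and 0.01 FPKM in Sham libraries. Its groups did not overlap and its log2 fold change was 2.37 ± 0.44 (adjusted p = 0.000242), a value that the added pseudocount of 1 makes smaller for so low a gene. Mcl1 was already the most abundant member in Sham libraries, with 322, 204, 213 and 170.4 FPKM there and 272, 295, 308 and 265 FPKM in MCAO libraries. These ranges overlapped, and the log2 fold change was 0.36 ± 0.29 with an interval of -0.24 to 0.96 (adjusted p = 0.332). It was -0.17 once trends in transcript length and GC content were removed.

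The BH3-only genes split. Bcl2l11 had 48.0, 54.8, 30.3 and 34.9 FPKM in MCAO libraries, against 6.90, 11.3, 11.5 and 17.4 FPKM in Sham libraries, a log2 fold change of 1.78 ± 0.37 (adjusted p = 0.000835). Pmaip1 had 14.4, 28.3, 15.4 and 14.5 FPKM in MCAO libraries, against 6.57, 7.58, 9.01 and 1.87 FPKM in Sham libraries, a log2 fold change of 1.49 ± 0.40 (adjusted p = 0.00636). Neither gene overlapped between the groups. Bbc3 ran the other way, with 1.34, 1.78, 0.58 and 1.65 FPKM in MCAO libraries, against 1.27, 6.82, 5.14 and 10.8 FPKM in Sham libraries. It fell by 1.39 ± 0.50 on the log2 scale (adjusted p = 0.0326), but Sham replicate 1 lay inside the MCAO range. That call is the least firm of the 8: the adjusted p was 0.0892 with a pseudocount of 0.1 and 0.0613 when only the 8 libraries compared were fitted. Leaving out single libraries (Sham replicate 2, 3 or 4, or MCAO replicate 1 or 3) also ended it, with adjusted p of 0.0548 to 0.105. Bid had 36.4, 28.2, 34.2 and 12.5 FPKM in MCAO libraries, against 5.80, 29.1, 38.7 and 43.1 FPKM in Sham libraries. The spread within each group was as wide as the distance between them, and the log2 fold change was 0.13 ± 0.48 with an interval of -0.87 to 1.13 (adjusted p = 0.847). The sign of the Bid difference turned after quantile normalization (-0.10) and after removal of length and GC trends (-0.22).

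Cdkn1a had 249.5, 180.2, 100.8 and 167 FPKM in MCAO libraries, against 21.3, 40.7, 11.01 and 18.9 FPKM in Sham libraries. All MCAO libraries exceeded all Sham libraries, with a log2 fold change of 2.94 ± 0.34 (adjusted p = 8.35e-07). Across the 10 genes, 7 were higher in every MCAO library than in any Sham library, 0 were lower in every one, and 3 overlapped; among all tested genes 21.8% were higher in that way and 12.0% lower. These 7 are the genes that the model called higher, and each stayed called in every other setting run, with adjusted p of at most 0.0284 (Pmaip1). The same count without a test was 7 higher and 3 overlapping for MCAO+Ctrl-exos against Sham, where 19.4% of all genes were higher without overlap. The libraries of MCAO+Ctrl-exos and MCAO were set against the same 4 Sham libraries, so these counts are not independent.

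The GC content of transcripts varied with the Sham libraries and stands beside these values. In the most GC-rich 20% of genes the median log2 difference from the MCAO mean was -1.13, -0.58, -0.71 and -0.21 in Sham replicates 1 to 4. GC content was 59.1% for Bax, 57.0% for Bak1 and 68.0% for Bbc3, with a median of 50.4% over all genes. After removal of length and GC trends the 7 genes were still called higher. Bbc3 was then at -2.29 (adjusted p = 0.000668, limma), against -1.39 in the main fit. The part of the change of cell markers in these differences was not tested.

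**Figure D2:**
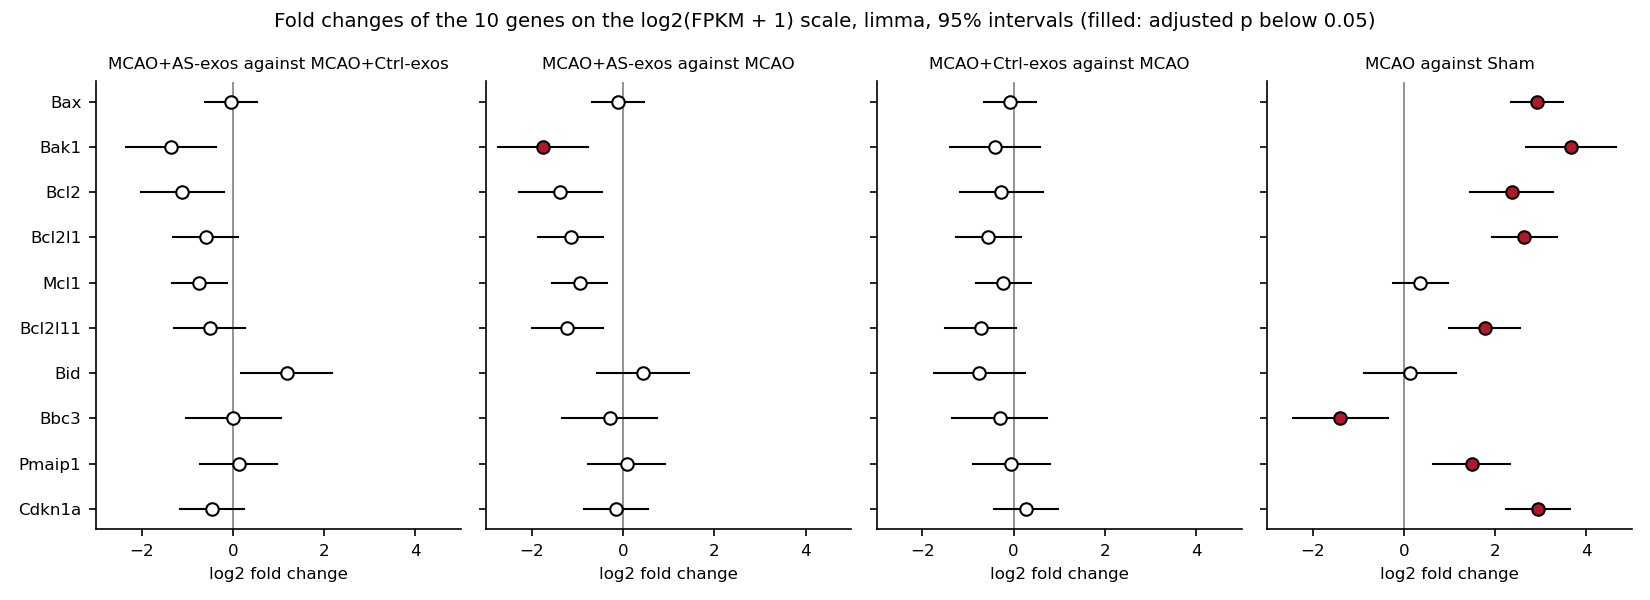
Log2 fold change on the log2(FPKM + 1) scale (horizontal axes) with its 95% interval for the 10 genes (vertical axis) in 4 comparisons, MCAO+AS-exos against MCAO+Ctrl-exos, MCAO+AS-exos against MCAO, MCAO+Ctrl-exos against MCAO, and MCAO against Sham; filled points had an adjusted p below 0.05. In MCAO against Sham 7 points are filled above 0 and 1 below, in MCAO+AS-exos against MCAO only Bak1 is filled, and in the other 2 panels none is.

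The summed levels put effectors and guardians side by side. Bax and Bak1 together came to 218 to 397 FPKM in MCAO+AS-exos, 231 to 348 in MCAO+Ctrl-exos, 252 to 406 in MCAO and 22.1 to 54.1 FPKM in Sham libraries. The summed guardians Bcl2, Bcl2l1 and Mcl1 came to 142 to 393 FPKM in MCAO+AS-exos, 270.3 to 388 in MCAO+Ctrl-exos, 382 to 399.8 in MCAO and 193 to 332 FPKM in Sham libraries. The effector sum thus separated the 12 stroke libraries from Sham and the guardian sum did not. The ratio of effector to guardian FPKM was 1.59, 1.71, 1.41 and 1.01 in MCAO+AS-exos replicates 1 to 4. It was 0.855 to 0.997 in MCAO+Ctrl-exos, 0.631 to 1.06 in MCAO and 0.067 to 0.28 in Sham libraries. All 4 MCAO+AS-exos ratios were above those of MCAO+Ctrl-exos, and replicates 1 to 3 but not replicate 4 were above those of MCAO. The separation depends on which guardians are summed. With the FPKM of the related guardian Bcl2a1b added, the ratio was 0.318, 0.416, 0.289 and 0.509 in MCAO+AS-exos replicates 1 to 4, and it ranged over 0.26 to 0.408 in MCAO+Ctrl-exos, 0.297 to 0.432 in MCAO and 0.009 to 0.051 in Sham. The stroke groups then overlapped and Sham stayed apart. These ratios are given without a test and were not recomputed with length trends removed. Bax (674.5 bases) is shorter than Mcl1 (2138 bases). Long transcripts were lower in MCAO+AS-exos replicates 1 to 3, as given below, and the part of length in the ratios was not tested. They count transcripts and not proteins. Mcl1 made up 66.8 to 83.8% of the guardian sum in MCAO+AS-exos, 73.1 to 82.2% in MCAO+Ctrl-exos, 68.0 to 77.5% in MCAO and 88.3 to 96.9% in Sham libraries.

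**Figure D3:**
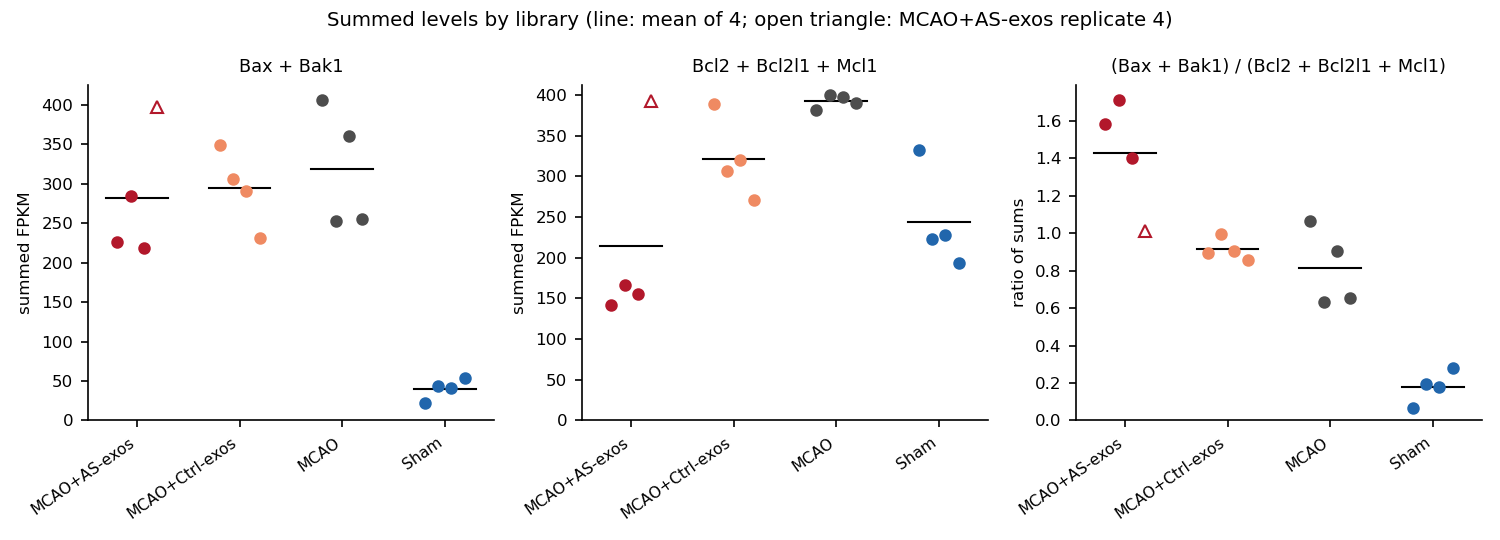
Summed FPKM of the effectors Bax and Bak1 (left), of the guardians Bcl2, Bcl2l1 and Mcl1 (middle) and the ratio of the sums (right), each axis from 0, for the 4 libraries of each group, with the group mean as a line and MCAO+AS-exos replicate 4 as an open triangle. The ratio is 1.41 to 1.71 in MCAO+AS-exos replicates 1 to 3, 1.01 in replicate 4, and at most 0.28 in Sham.

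In MCAO+AS-exos against MCAO+Ctrl-exos, which asks whether the donor of the exosomes mattered, none of the 10 genes passed the test with all libraries. The share of all tested genes called was 0.286%. At an unadjusted p below 0.05 limma counted 4 of the 10 genes and 19.6% of all genes. The MCAO+AS-exos group was split for the genes with the widest differences. Bak1 had 3.40, 3.90, 2.53 and 19.1 FPKM in MCAO+AS-exos libraries, against 16.5, 17.1, 11.5 and 15.4 FPKM in MCAO+Ctrl-exos libraries. Replicates 1 to 3 were far below every MCAO+Ctrl-exos library and replicate 4 was above them all. The log2 fold change was -1.35 ± 0.47 with an interval of -2.34 to -0.36 (adjusted p = 0.127), and without replicate 4 it was -1.91 (adjusted p = 0.00385). Mcl1 had 119, 120.1, 104 and 308 FPKM in MCAO+AS-exos libraries, against 289, 237, 263 and 198 FPKM in MCAO+Ctrl-exos libraries. It showed the same split, with a log2 fold change of -0.73 ± 0.29 (adjusted p = 0.168) that became -1.09 without replicate 4 (adjusted p = 0.00369). Bcl2 had 0.97, 0.70, 1.11 and 5.80 FPKM in MCAO+AS-exos libraries, against 5.76, 7.29, 4.16 and 2.62 FPKM in MCAO+Ctrl-exos libraries. Its log2 fold change was -1.11 ± 0.44 (adjusted p = 0.170) with all libraries and -1.57 without replicate 4 (adjusted p = 0.012). Without that library these 3 of the 10 genes were called, all lower, against 8.44% of all genes called lower and 12.0% called in either direction. With length and GC trends removed as well, Bcl2 lost its call (-1.06, adjusted p = 0.0607), while Bak1 (-1.61, adjusted p = 0.0088) and Mcl1 (-0.84, adjusted p = 0.0499) were still called.

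Bid, which caspase-8 cleaves to link death receptors to mitochondria, lay the other way. Replicate 4 was again the MCAO+AS-exos library nearest to MCAO+Ctrl-exos. It had 33.9, 44.8, 46.4 and 21.9 FPKM in MCAO+AS-exos libraries, against 13.1, 13.3, 19.6 and 14.8 FPKM in MCAO+Ctrl-exos libraries. The groups did not overlap, replicate 4 included, a pattern that 5.19% of all tested genes showed in this direction. The log2 fold change was 1.18 ± 0.48 with an interval of 0.18 to 2.18 and did not pass after adjustment (adjusted p = 0.185, limma), nor did the value without replicate 4 (1.40, adjusted p = 0.0847). Its adjusted p ranged from 0.0473 to 0.45 over the other settings, and the lowest came with length and GC trends removed and replicate 4 left out. Bax did not pass, with 222, 280.4, 216 and 378 FPKM in MCAO+AS-exos libraries and 332, 288, 279 and 216 FPKM in MCAO+Ctrl-exos libraries. Its log2 fold change of -0.04 has an interval of -0.62 to 0.53, which leaves room for a change in either direction, and it was -0.21 without replicate 4 (adjusted p = 0.669). Bcl2l1 and Bcl2l11 did not pass, at -0.60 (adjusted p = 0.334) and -0.50 (adjusted p = 0.471), although both were lower in each of replicates 1 to 3 than in any MCAO+Ctrl-exos library. Without replicate 4 they were at -0.87 (adjusted p = 0.0954) and -0.83 (adjusted p = 0.13). In that setting 5 of the 10 genes were lower with no overlap, as were 21.9% of all genes. Cdkn1a had 99.6, 203, 173 and 136 FPKM in MCAO+AS-exos libraries, against 174, 222, 217 and 199 FPKM in MCAO+Ctrl-exos libraries, with a log2 fold change of -0.45 (adjusted p = 0.474) that was -0.41 without replicate 4 (adjusted p = 0.507). Pmaip1 had 13.3, 17.0, 18.1 and 28.0 FPKM in MCAO+AS-exos libraries, against 27.9, 18.4, 12.2 and 12.5 FPKM in MCAO+Ctrl-exos libraries. Bbc3 had 1.49, 0.88, 1.24 and 0.15 FPKM in MCAO+AS-exos libraries, against 3.47, 0.42, 0.32 and 0.39 FPKM in MCAO+Ctrl-exos libraries. The groups overlapped for these 3 genes of the p53 arm. Pmaip1 was at 0.13 with all libraries (adjusted p = 0.895) and -0.06 without replicate 4 (adjusted p = 0.946), and Bbc3 was at 0.01 (adjusted p = 0.995) and 0.24 (adjusted p = 0.808).

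In MCAO+AS-exos against MCAO, 1 of the 10 genes passed, against 6.14% of all tested genes, or 5.08% counting lower calls alone. This was Bak1, whose 4 MCAO+AS-exos values given above stood against 18.0, 13.8, 22.2 and 29.7 FPKM in MCAO libraries. Its log2 fold change was -1.76 ± 0.47 with an interval of -2.75 to -0.77 (adjusted p = 0.0387). The call ended when any 1 of the 8 compared libraries other than MCAO+AS-exos replicate 4 was left out, with adjusted p of 0.0562 to 0.162. It also ended with quantile normalization (adjusted p = 0.0766, limma). Bcl2l1 had 22.0, 45.2, 50.5 and 79.2 FPKM in MCAO+AS-exos libraries, and all 4 were below the lowest MCAO library (83.3 FPKM). Its log2 fold change of -1.15 ± 0.34 missed the threshold (adjusted p = 0.0502), and no other member was lower in all libraries, against 10.1% of all genes. Bcl2l11 had 13.1, 13.3, 13.4 and 34.2 FPKM in MCAO+AS-exos libraries, of which the first 3 were all below the lowest MCAO library and the last lay within the MCAO range. Its log2 fold change was -1.23 ± 0.37 (adjusted p = 0.0541). Mcl1 at -0.95 ± 0.29 (adjusted p = 0.0517) and Bcl2 at -1.38 ± 0.44 (adjusted p = 0.0611) also missed the threshold with all libraries.

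Without MCAO+AS-exos replicate 4, the effector Bak1, all 3 guardians and the BH3-only gene Bcl2l11 were lower than in MCAO. The log2 fold changes were then -2.32 for Bak1 (adjusted p = 0.000706), -1.84 for Bcl2 (0.00324), -1.42 for Bcl2l1 (0.00746), -1.31 for Mcl1 (0.000723) and -1.55 for Bcl2l11 (0.00612). These 5 of 10 genes stand against 14.8% of all genes called lower and 18.7% called in either direction in the same fit. All 5 were lower in each of replicates 1 to 3 than in any MCAO library, as were 27.0% of all genes. Mcl1 averaged 114 ± 9.21 FPKM in MCAO+AS-exos replicates 1 to 3 and 285 ± 20.2 FPKM in MCAO libraries (SD, n = 3 and 4). Those 3 libraries were also below every Sham library for Mcl1, which was the only member in that position, against 24.8% of all genes. Bax, Cdkn1a, Pmaip1, Bbc3 and Bid did not pass with or without replicate 4. With all libraries Bax was at -0.12 ± 0.27 (interval -0.69 to 0.45, adjusted p = 0.832) and Cdkn1a at -0.16 ± 0.34 (adjusted p = 0.802). Bid was at 0.43 ± 0.48 (adjusted p = 0.607), Bbc3 at -0.29 ± 0.50 (adjusted p = 0.756) and Pmaip1 at 0.08 ± 0.40 (adjusted p = 0.924). Without replicate 4 the values were -0.28 for Bax, -0.13 for Cdkn1a, 0.66 for Bid, -0.06 for Bbc3 and -0.11 for Pmaip1, with adjusted p of 0.401 to 0.952. Both comparisons of MCAO+AS-exos share that group's libraries, so their values are given side by side and not as independent results.

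**Figure D4:**
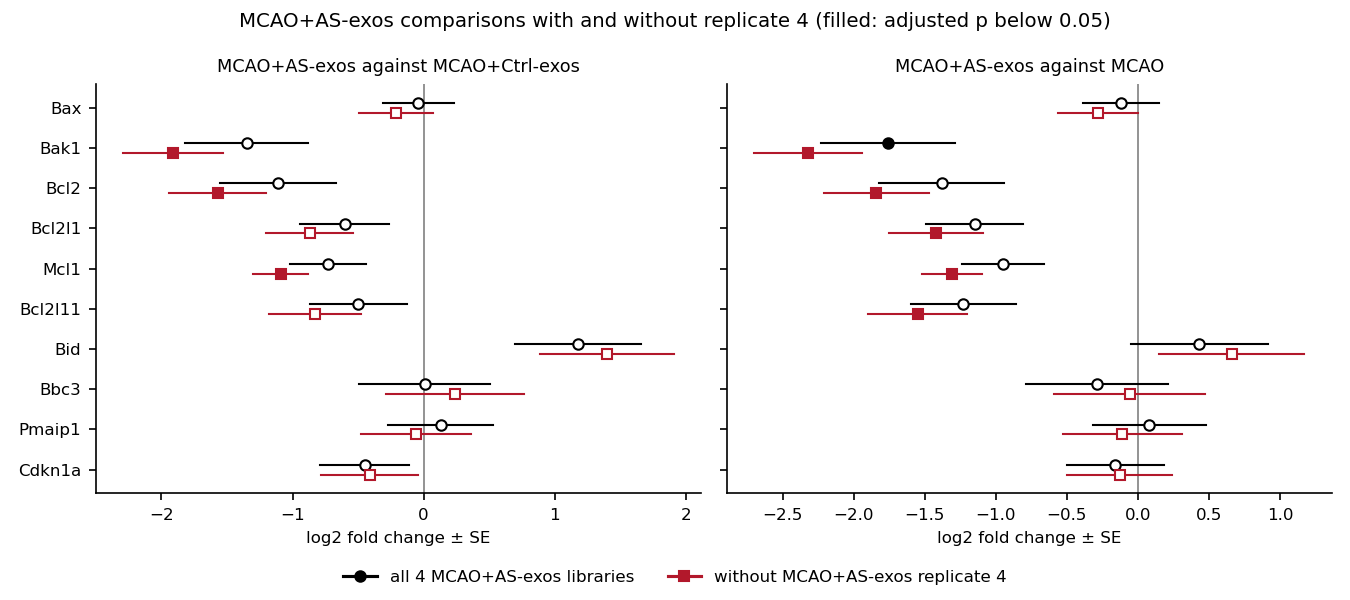
Log2 fold change with its SE (horizontal axes) of the 10 genes (vertical axis) in MCAO+AS-exos against MCAO+Ctrl-exos (left) and against MCAO (right), with all 4 MCAO+AS-exos libraries (circles) and without replicate 4 (squares); filled symbols had an adjusted p below 0.05. Without replicate 4, 3 genes are filled on the left and 5 on the right, all below 0.

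Transcript length and cell markers moved with the same libraries. In the longest 20% of transcripts the median log2 difference from the MCAO mean was -0.60, -0.67 and -0.64 in MCAO+AS-exos replicates 1 to 3 and -0.12 in replicate 4. It was 0.01, -0.26, -0.33 and -0.35 in MCAO+Ctrl-exos replicates 1 to 4. Bcl2 (5016 bases), Mcl1 (2138), Bak1 (1966) and Bcl2l11 (1956) are longer than the median gene (1438), Bcl2l1 (1403) is close to it, and Bid (563) and Bax (674.5) are shorter. With length and GC trends removed and replicate 4 left out, the same 5 genes were called lower than in MCAO, at -1.91 for Bak1, -1.24 for Bcl2l1, -1.29 for Bcl2l11, -0.93 for Mcl1 and -1.08 for Bcl2. With the trends removed and all libraries kept, none of the 10 was called in that comparison. Monocyte markers summed to 5539 to 6912 FPKM in replicates 1 to 3 and 3374 in replicate 4. Chil3 alone was at 2948, 3393 and 4235 FPKM in replicates 1 to 3 and 652 in replicate 4, and the other 9 markers summed to 2749.5, 2146, 2676 and 2722 FPKM in replicates 1 to 4. The 8 neutrophil markers summed to 5876 to 7190.4 FPKM in replicates 1 to 3 and 3373 in replicate 4, and 6 dendritic cell markers to 44.5 to 59.0 and 135 FPKM in the same libraries. The neutrophil sums of all 4 replicates lay within the 1632 to 9702 FPKM of the MCAO libraries. Against the 1733 to 3469 FPKM of the MCAO+Ctrl-exos libraries, replicates 1 to 3 lay above the range and replicate 4 within it. The neutrophil gene Ly6g was listed at 0 in all MCAO and Sham libraries, while 5 of 7 tested neutrophil markers were called higher in MCAO than in Sham. The part of these markers in the differences of the BCL2 family was not tested.

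In MCAO+Ctrl-exos against MCAO, which sets the second kind of exosome against none, none of the 10 genes passed, against 0.0738% of all tested genes. At an unadjusted p below 0.05 limma counted 0 of the 10 genes and 10.9% of all genes. The widest differences were Bid at -0.75 (interval -1.75 to 0.25, adjusted p = 0.585), Bcl2l11 at -0.72 (adjusted p = 0.494) and Bcl2l1 at -0.55 (adjusted p = 0.565). All 10 genes overlapped between the groups, while 5.98% of all tested genes did not. MCAO+Ctrl-exos had 93.6, 62.2, 52.8 and 70.1 FPKM of Bcl2l1 and 44.0, 21.8, 18.2 and 19.95 FPKM of Bcl2l11, so that replicate 1 was the highest of its group for both.

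The order of the groups differed between genes. Mean levels of Bak1 were 7.23 ± 7.93 FPKM in MCAO+AS-exos, 15.1 ± 2.51 in MCAO+Ctrl-exos, 20.9 ± 6.79 in MCAO and 0.792 ± 0.767 FPKM in Sham (SD, n = 4 each), and the MCAO+AS-exos mean was 3.28 ± 0.693 FPKM without replicate 4 (n = 3). Bcl2, Bcl2l1 and Bcl2l11 had the same order of means, highest in MCAO, then MCAO+Ctrl-exos, then MCAO+AS-exos, and lowest in Sham. For these 4 genes the ranges of neighbouring groups overlapped among the stroke groups. Sham stood clear of MCAO+Ctrl-exos for all 4, and of MCAO+AS-exos for Bak1 only. Over all 10 genes, 4 were higher in every MCAO+AS-exos library than in any Sham library (Bax, Bak1, Pmaip1 and Cdkn1a), as were 19.4% of all genes. Bid had its highest mean in MCAO+AS-exos, at 36.7 ± 11.4 FPKM, with 15.2 ± 3.01 in MCAO+Ctrl-exos, 27.8 ± 10.8 in MCAO and 29.2 ± 16.6 FPKM in Sham, and 41.7 ± 6.81 FPKM in MCAO+AS-exos without replicate 4. Within the 3 stroke groups the most abundant members were Bax, Mcl1 and Cdkn1a in that order of means, and the scarcest were Bcl2 and Bbc3. In MCAO+AS-exos the order of Mcl1 and Cdkn1a rested on replicate 4: without it Cdkn1a averaged 158.5 ± 53.1 FPKM and Mcl1 114 ± 9.21 FPKM, and Bbc3 (1.2 ± 0.307) was above Bcl2 (0.927 ± 0.208). In Sham, Mcl1 led with 228 ± 65.6 FPKM, ahead of Bax with 39.2 ± 12.8 and Bid with 29.2 ± 16.6 FPKM, and the last 2 overlapped.

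Counts in the rest of the pathway stand against the 24.5% of all tested genes called higher and 14.8% called lower in MCAO than in Sham. Called in either direction were 46.2% of the other BCL2 family, 33.3% of p53 and its regulators and 21.7% of the caspase machinery, 12 of 24 other p53 targets and 7 of 14 p21 partners and CDK inhibitors, against 39.2% of all genes. Of the other BCL2 family, 13 of 18 listed genes were tested, of which 2 were higher and 4 lower in MCAO than in Sham, with a median log2 fold change of -0.36. The guardian Bcl2l2 (BCL-W) rose by 1.32 (adjusted p = 0.00692), a call lost after removal of length and GC trends (0.64, adjusted p = 0.127). Bnip2 also rose (adjusted p = 0.0108), to 87.8 ± 27.5 FPKM in MCAO, against 44.5 ± 16.9 FPKM in Sham (SD, n = 4 each). The mitophagy receptors Bnip3 and Bnip3l fell by 0.93 (adjusted p = 0.0231) and 0.75 (adjusted p = 0.0341). Bcl2a1b, a myeloid guardian, averaged 481 ± 75.4 FPKM in MCAO and 1515 ± 525 FPKM in Sham libraries (SD, n = 4 each). It fell by 1.59 (adjusted p = 2.44e-05) and Bcl2a1a fell by 3.15 (adjusted p = 0.0163). The Bcl2a1 copies are near-identical and reads may be split between them, so their single values are uncertain. Bcl2a1b exceeded Mcl1 in FPKM in all 16 libraries, by 1.26 to 5.79 times in MCAO+AS-exos, 1.61 to 3.13 in MCAO+Ctrl-exos, 1.42 to 2.18 in MCAO and 5.1 to 7.82 times in Sham.

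Among 24 tested of 27 other p53 targets, 7 were higher and 5 lower in MCAO, with a median of 0.66. Gadd45a, which acts in DNA damage arrest, averaged 28.2 ± 9.81 FPKM in MCAO and 0.625 ± 0.449 FPKM in Sham (SD, n = 4 each) and rose by 4.15 (adjusted p = 1e-07). The death receptor Fas rose by 3.11 (adjusted p = 0.000763), the mTOR inhibitor Ddit4 by 2.11 (adjusted p = 0.000403) and Rps27l by 1.05 (adjusted p = 0.000472). The antiproliferative gene Btg2 averaged 118 ± 21.8 FPKM in MCAO and 679.5 ± 171 FPKM in Sham and fell by 2.50 (adjusted p = 2.51e-07). Ak1 fell by 2.64 (adjusted p = 6.38e-05). Of p53 and its regulators, 3 of 9 tested genes were higher and 0 lower, namely the kinases Hipk2 at 2.04 (adjusted p = 0.0011) and Chek2 at 1.67 (adjusted p = 0.00482) and the deubiquitinase Usp7 at 1.63 (adjusted p = 0.00146). Trp53 and Mdm2 did not pass and are named here after their values were seen. Trp53 averaged 20.4 ± 7.76 FPKM in MCAO and 34.0 ± 12.7 FPKM in Sham, a log2 fold change of -0.69 (adjusted p = 0.153). Trp53 was called lower without Sham replicate 1 (adjusted p = 0.0369) and with trends removed (-1.16, adjusted p = 0.0108). Mdm2, the ligase that degrades p53 and itself a p53 target, averaged 48.4 ± 9.27 FPKM in MCAO and 33.1 ± 13.5 FPKM in Sham, at 0.61 (adjusted p = 0.11). Without Sham replicate 3 it was called higher (0.82, adjusted p = 0.0404).

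Of 23 genes of the caspase machinery, 3 were higher and 2 lower in MCAO than in Sham. Apaf1, the scaffold of the apoptosome, rose by 2.03 (adjusted p = 0.000233), the inhibitor Birc5 (survivin) by 3.13 (adjusted p = 0.0131) and the channel gene Vdac1 by 0.73 (adjusted p = 0.0339). Casp8 fell by 0.87 (adjusted p = 0.00498) and Diablo, which antagonises inhibitors of apoptosis, by 0.94 (adjusted p = 0.029). Of 14 tested partners of p21 and CDK inhibitors, 7 were higher and 0 lower. The cyclins Ccnd2 at 2.88 (adjusted p = 4.13e-05), Ccnd3 at 2.08 (adjusted p = 0.00798), Ccna2 at 2.06 (adjusted p = 0.00324) and Ccnb1 at 2.28 (adjusted p = 0.0169) rose beside Cdkn1a, as did the CDK inhibitor Cdkn2d and the replication clamp Pcna. Of the 26 genes named from these lists by p-value, 17 kept their call in every other setting run, and 9 lost it in at least 1. Besides Bcl2l2 these were Bcl2a1a (adjusted p = 0.07 without MCAO replicate 4), Bnip3 (up to 0.0643), Bnip3l (up to 0.0925), Birc5 (0.0591 without MCAO replicate 1), Diablo (up to 0.0805), Vdac1 (up to 0.198), Pcna (up to 0.0647) and Ccnb1 (up to 0.0572). The calls of Bnip3, Bnip3l, Diablo, Vdac1, Pcna and Ccnb1 each ended in at least 2 settings that left out 1 library.

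**Figure D5:**
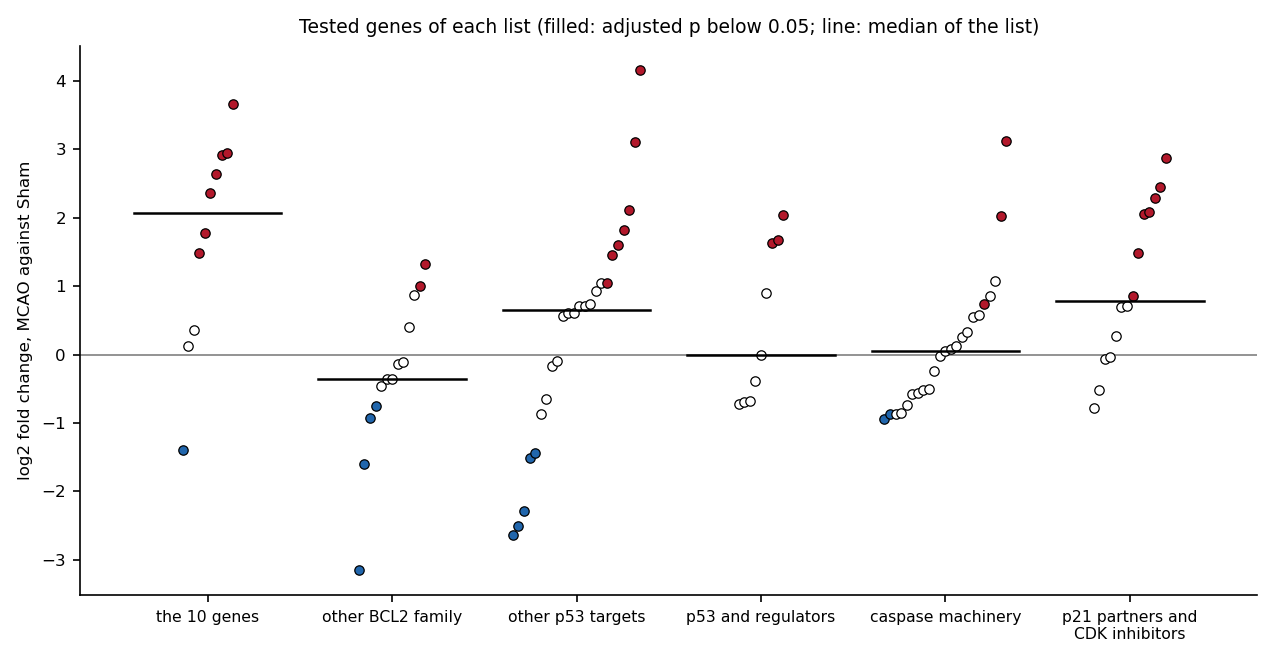
Log2 fold change of MCAO against Sham (vertical axis) for the tested genes of the 10 members and 5 further lists (horizontal axis), each point a gene, filled where the adjusted p was below 0.05, with the median of each list as a line. The 10 members have a median of 2.07, the other BCL2 family of -0.36, other p53 targets of 0.66 and caspase machinery of 0.06.

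In the comparisons with exosomes these lists were mostly uncalled. In MCAO+AS-exos against MCAO, 1 gene of the other BCL2 family, 1 of the other p53 targets and 4 of the caspase machinery were called, and 0 in the remaining 2 lists. These are 7.69%, 4.17% and 17.4% of the genes tested in the first 3 lists, against 6.14% of all genes. Bcl2l2 had 12.7, 16.4, 8.85 and 48.0 FPKM in MCAO+AS-exos libraries, against 53.4, 48.9, 48.6 and 41.9 FPKM in MCAO libraries, and fell by 1.41 (adjusted p = 0.0346). It had the same split as Bak1 and Mcl1, with replicate 4 within the MCAO range. Ddit4 fell by 1.61 (adjusted p = 0.0343), and so did the inhibitors of caspase activation Xiap, by 1.42 (adjusted p = 0.0325), and Cflar (c-FLIP), by 0.96 (adjusted p = 0.0467). The mitochondrial genes Aifm1 and Vdac3 rose by 1.52 (adjusted p = 0.0324) and 1.03 (adjusted p = 0.0325). All 6 calls were lost when at least 1 single library was left out, and all 6 were kept without replicate 4, at -1.88 for Bcl2l2, -1.82 for Ddit4, -1.72 for Xiap, -1.02 for Cflar, 1.62 for Aifm1 and 1.22 for Vdac3. In MCAO+AS-exos against MCAO+Ctrl-exos and in MCAO+Ctrl-exos against MCAO, no gene of the 5 lists was called by limma.

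For the 8 members called in MCAO against Sham, which leaves out Mcl1 and Bid, the most similar genes over the 16 libraries were found by the mean absolute difference of log2(FPKM + 1) after centring each gene. Bax was closest to Gpi1 (0.218), a glycolytic enzyme, and Pgd (0.228), an enzyme of the pentose phosphate pathway. Bak1 was closest to the membrane protease gene Mmp14 (0.366) and Capn1 (0.374), and Bcl2 to Fmn1 (0.239) and Ybx1 (0.240). Bcl2l1 was closest to Snd1 (0.259), Bcl2l11 to Fnbp1 (0.237) and Lasp1 (0.238), Pmaip1 to Mfsd13a (0.298), and Cdkn1a to the chemokine gene Cxcl16 (0.338). Bbc3 was closest to Iqcb1 (0.296) and the immediate early gene Ier2 (0.375). None of the 10 genes was among the 3 closest to any of these 8.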

How the data were processed

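RNA of 16 sorted-cell libraries in 4 groups was analysed from a table that the authors deposited with 1 value per gene and library. The unit of these deposited values is taken to be FPKM from their scale and the tool named, since no header states it. HISAT2, Bowtie2 and RSEM 1.3.1 and the build GRCm39.p6 are named per the submitters' processing notes, without their roles. The 16 single-library tables held the same values. Groups came from the sample titles. FPKM depend on transcript length and on the makeup of the whole library, and depth is unknown. The filter kept 10846 genes (1 FPKM or more in 4 or more libraries). All were fitted in limma 3.58.1 (R 4.3.3, group means, trend and robust eBayes) on log2(FPKM + 1), two-sided, with Benjamini-Hochberg adjustment over all tested genes and a threshold of 0.05. Intervals are 95% intervals. The same steps were run on simulated data with independent noise in each gene and library. No simulated library stood apart from its group as MCAO+AS-exos replicate 4 does. The members and gene lists were chosen with earlier results of these data known. Genes of the other lists were named when among the 6 smallest p-values of those called. For likeness the 3 closest genes were taken for each member called in MCAO against Sham. Transcript lengths and GC content came from GENCODE annotation of GRCm38 by symbol for 13494 genes. Alternatives were other scalings, filters, pseudocounts, models and omitted libraries. Removal of length and GC trends (loess), alone and together with omission of MCAO+AS-exos replicate 4, omission of that library together with MCAO+Ctrl-exos replicate 1, and the addition of Bcl2a1b to the summed guardians were chosen after seeing the data.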

Additional observations from a re-analysis of the deposited data

Results flagged for a closer look

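In 7 of the 40 sets formed by 10 genes in 4 groups, 1 library lay apart from the other 3 by Dixon's gap over range, at the 95% critical value. Chance flags about 1 in 20 such sets. Of the 7, 4 were in MCAO+AS-exos replicate 4 and 2 in MCAO+Ctrl-exos replicate 1. In MCAO+AS-exos replicate 4, Bak1 was at 19.1 FPKM against 2.53 to 3.9 in the other 3 libraries (gap over range 0.917), and Bcl2 at 5.8 against 0.7 to 1.11 FPKM (0.92). Bcl2l11 was at 34.2 FPKM there against 13.1 to 13.4 (0.985), and Mcl1 at 308 against 104 to 120.1 FPKM (0.92). In MCAO+Ctrl-exos replicate 1, Bcl2l11 was at 44.0 FPKM against 18.2 to 21.8 in the others (0.863), and Bbc3 at 3.47 against 0.32 to 0.42 FPKM (0.968). In MCAO replicate 2, Pmaip1 was at 28.3 FPKM against 14.4 to 15.4 in the others (0.929).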

How the results depend on the processing

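In MCAO against Sham, 4254 genes were called; the split was 2654 higher and 1600 lower, against 2084 and 2164 after quantile normalization and 2035 and 1907 with length and GC trends removed. All settings gave 7 or 8 called members. In MCAO+AS-exos against MCAO+Ctrl-exos, the 31 called genes became 88 with quantile normalization, 93 with at least 5 FPKM, 16 without the trend, 9 with the 8 libraries alone, 68 with the replicate block, 112 with trends removed, 1088 without MCAO+AS-exos replicate 4 and MCAO+Ctrl-exos replicate 1, and 1228 with trends removed and replicate 4 left out; the last 2 settings called 3 members each, Bak1, Bcl2 and Mcl1 lower in the first, and Bak1 and Mcl1 lower and Bid higher in the second. Leaving out 1 library gave 1 to 1297 genes and 0 to 3 members; the upper ends came without MCAO+AS-exos replicate 4. In MCAO+AS-exos against MCAO, 666 genes became 318 with quantile normalization, 31 with 8 libraries, 347 with trends removed, 2155 without both libraries, 1617 with trends removed and replicate 4 left out, and 0 to 2024 without 1 library. Its 1 called member became 5 with scaled totals, 4 with at least 5 FPKM, 0 with pseudocount 0.1, 2 without the trend, 0 with 8 libraries, 0 with trends removed, 5 without both libraries, 5 with trends removed and replicate 4 left out, and 0 to 5 without 1 library. With quantile normalization the count stayed at 1, but Bak1 lost its call (-1.43, adjusted p = 0.0766, limma). Mcl1 was called there instead (-1.13, adjusted p = 0.0479, limma). In MCAO+Ctrl-exos against MCAO, 8 genes became 5 with scaled totals, 3 without the filter, 2 without the trend, 3 with 8 libraries, 5 with the replicate block, 3 with trends removed, 168 without both libraries and 2 to 89 without 1 library; no setting called a member. Uncalled differences changed sign as follows. For MCAO+AS-exos against MCAO+Ctrl-exos, Bax was 0.04 with scaled totals, 0.21 with trends removed and 0.13 with replicate 4 also left out; without 1 library Bax ranged from -0.21 to 0.06, Bbc3 from -0.15 to 0.44 and Pmaip1 from -0.06 to 0.37. For MCAO+AS-exos against MCAO, trends removed gave 0.04 for Bax and 0.28 for Bbc3 (0.74 without replicate 4); Pmaip1 was -0.04 with scaled totals and -0.11 without both libraries. Without 1 library Bax ranged from -0.28 to 0.02, Pmaip1 from -0.11 to 0.30 and Cdkn1a from -0.40 to 0.03. For MCAO+Ctrl-exos against MCAO, Pmaip1 was 0.11 with quantile normalization and 0.17 with trends removed, and without 1 library ranged from -0.29 to 0.17 and Bax from -0.19 to 0.07. For MCAO against Sham, Mcl1 was -0.17 with trends removed, and Bid -0.10 with quantile normalization, -0.22 with trends removed and -0.48 to 0.46 without 1 library. Same-numbered libraries had residual correlations of -0.148 to 0.092, so the numbers were not taken as pairs; with the replicate block Bbc3 lost its call in MCAO against Sham (adjusted p = 0.0501, limma). The cause of a change between settings was not tested. Depth is unknown, and low genes such as Bcl2 and Bbc3 are least precise.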
